A study of Mus musculus with 4 samples.

Results

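The genes described here are 10 genes of leukaemia and of immature myeloid cells, read in RNA of sorted mouse natural killer (NK) cells: the MLL-AF9 targets Hoxa9 and Meis1, the progenitor surface genes Kit, Cd34 and Flt3, the primary granule genes Mpo, Ctsg, Elane and Prtn3, and Ms4a3, a membrane protein gene of granulocyte precursors. They were chosen by symbol for what they are known to mark, and their NCBI Gene numbers were looked up among the 17723 gene numbers listed in any library. All 10 were listed in at least 1 library, and 9 in all 4. The 4 libraries come from spleens of C57BL/6J mice aged 6 to 8 weeks, sorted into DNAM-1+ and DNAM-1- NK cells (DNAM-1 is the activating receptor encoded by Cd226). A pair came from normal spleen at day 0 and a pair from spleen at day 17 after transfer of GFP+ leukaemia cells into mice that were not irradiated. A survival of 35 to 40 days is also given, which cannot be that of mice sampled at day 17. Each of the 4 groups is 1 library, and the labels give neither how the leukaemia line was made, nor the sorting gates beyond DNAM-1, nor the mice behind a library, so no value below has a replicate spread. No library of the leukaemia cells themselves was analysed here.

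MLL-AF9 is a fusion of the histone methyltransferase MLL with AF9, a partner that recruits elongation factors, and it holds Hoxa9 and its cofactor Meis1 on in leukaemia cells that resemble granulocyte and monocyte progenitors. Such progenitors carry KIT, CD34 or FLT3 and, at the promyelocyte stage, transcribe the enzymes of the primary (azurophil) granule, whose genes are silent again by the time the neutrophil is mature. KIT, the receptor of stem cell factor, is also found on some NK cells and other innate lymphocytes, so Kit was kept apart from the other 9 genes throughout.

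The primary granule genes share their time of transcription in promyelocytes. Their promoters are shown because Mpo, Ctsg, Prtn3 and Elane had higher listed levels in both AML libraries. For Elane, and for Prtn3 in DNAM-1- cells, the difference was not detectable beyond counting error. The 250 bases before each start site, from RefSeq on assembly GRCm38.p6, were searched on both strands for GAGGAA (an ETS site of the PU.1 kind), TTNNGNAA (C/EBP), TGTGGT (RUNX) and AACNG (MYB), and no match overlapped another in the sequences shown. Capitals mark the matches. Kit follows as the gene that was kept apart. The windows are chr11:87793534-87793783 (plus strand) for Mpo, chr14:56102575-56102824 (minus strand) for Ctsg, chr10:79886062-79886311 (plus strand) for Elane, chr10:79879417-79879666 (plus strand) for Prtn3 and chr5:75574737-75574986 (plus strand) for Kit.
Mpo: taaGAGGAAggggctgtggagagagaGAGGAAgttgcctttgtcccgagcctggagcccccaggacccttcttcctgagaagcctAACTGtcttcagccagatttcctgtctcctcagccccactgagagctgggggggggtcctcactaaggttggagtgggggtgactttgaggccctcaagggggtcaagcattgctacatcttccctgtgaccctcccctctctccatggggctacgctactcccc
Ctsg: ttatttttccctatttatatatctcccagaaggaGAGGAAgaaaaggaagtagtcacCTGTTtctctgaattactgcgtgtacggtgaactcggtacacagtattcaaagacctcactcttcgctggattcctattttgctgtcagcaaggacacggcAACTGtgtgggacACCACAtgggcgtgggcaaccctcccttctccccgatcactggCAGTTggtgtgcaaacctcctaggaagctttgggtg
Elane: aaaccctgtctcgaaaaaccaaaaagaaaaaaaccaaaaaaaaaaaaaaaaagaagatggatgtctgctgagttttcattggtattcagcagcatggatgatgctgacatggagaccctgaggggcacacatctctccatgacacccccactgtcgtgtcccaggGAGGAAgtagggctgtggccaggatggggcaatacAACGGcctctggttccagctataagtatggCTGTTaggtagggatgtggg
Prtn3: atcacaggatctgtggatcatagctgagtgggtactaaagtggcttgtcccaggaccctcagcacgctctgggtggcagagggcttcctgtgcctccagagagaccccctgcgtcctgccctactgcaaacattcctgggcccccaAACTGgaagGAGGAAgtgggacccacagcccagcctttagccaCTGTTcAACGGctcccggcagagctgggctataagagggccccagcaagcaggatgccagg
Kit: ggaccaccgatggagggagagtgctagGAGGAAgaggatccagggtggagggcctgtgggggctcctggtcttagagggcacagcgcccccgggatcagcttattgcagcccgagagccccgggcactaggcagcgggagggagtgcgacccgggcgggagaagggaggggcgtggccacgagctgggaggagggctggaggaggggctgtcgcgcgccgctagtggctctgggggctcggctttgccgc
Each of the 4 granule promoters held GAGGAA, 2 times in Mpo and 1 time in the others, and GAGGAA was found in 23.1% of 27025 promoters of the same length. Each also held AACNG, which is common, at 74.1% of promoters. The Ctsg window held ACCACA, the reverse complement of TGTGGT, a motif of 14.2% of promoters, and none of the 4 held TTNNGNAA, found in 36.9%. The Kit window was the richest in G and C of the 5, at 70.8% with 17 CpG, against 47.6% and 3 CpG for Elane, and held 1 GAGGAA and none of the other motifs. Prtn3 and Elane are next to each other in the RefSeq order of chromosome 10. These matches describe letters and do not show that a factor binds.

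The libraries were estimated at 8900000 to 9200000 fragments, from the smallest steps of microRNA values. At that depth 1 estimated fragment on the short granule protease transcripts was about 0.11 FPKM (fragments per kilobase of transcript, scaled to the depth of the library, hence a level per length). Intervals below are exact 95% intervals for counting error, from estimated fragments, and leave out the spread between mice. Cd226 was listed at 38.58 and 36.06 FPKM in the DNAM-1+ and at 0.45 and 0.58 FPKM in the DNAM-1- libraries (normal, then AML), as the sort would have it. The NK receptor gene Ncr1 ranged from 382.7 to 597.25 FPKM, and the 10 NK markers summed to between 6584.84 and 7826.58 FPKM. Transcripts of other cell types were present too, with no single order between subsets. The 9 B cell markers summed to 1006.86 and 974.41 FPKM in the DNAM-1- against 208.31 and 231.04 FPKM in the DNAM-1+ libraries. T cell markers had the opposite order, at 27.07 and 22.86 against 69.14 and 65.73 FPKM. So did mast cell and basophil markers, at 2.35 and 2.81 against 4.42 and 4.78 FPKM. In bulk RNA, fewer cells of a type and less RNA per cell cannot be told apart.

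In AML spleen Mpo and Ctsg were above their level in normal spleen by more than counting error in both NK subsets, Prtn3 in DNAM-1+ cells, and Elane in neither. Mpo encodes myeloperoxidase, the granule enzyme that makes hypochlorous acid, and is a classic myeloid lineage marker of AML. It was listed at 0.25 FPKM in DNAM-1+ normal cells, 0.26 in DNAM-1- normal cells, 1.58 in DNAM-1+ AML cells and 2.29 in DNAM-1- AML cells. Both AML libraries were above both normal libraries, with 39 and 56 estimated fragments against 6 and 6. The FPKM ratio of AML to normal was 6.32 (2.76 to 19.0) in DNAM-1+ cells and 8.81 (3.98 to 26.2) in DNAM-1- cells.

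Ctsg, which encodes the granule protease cathepsin G, followed the same order. Its level was 0.11 FPKM in each normal library, 1.10 in DNAM-1+ AML cells and 1.68 in DNAM-1- AML cells. Only about 1 fragment lay behind each normal value, against 10 and 15 in AML, so the ratios of 10 (1.44 to 439) and 15.3 (2.28 to 625) have wide intervals, although neither reached down to 1. Prtn3, the gene of proteinase 3, was at 0.11 and 0.23 FPKM in DNAM-1+ and DNAM-1- normal cells and at 0.91 and 0.93 FPKM in the AML cells. Its 8 fragments in each AML library stood against 1 and 2 in normal spleen. The ratio was 8.27 (1.08 to 359) in DNAM-1+ cells and 4.04 (0.789 to 38.2) in DNAM-1- cells, where the interval takes in 1.

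Elane, the neighbour of Prtn3 and the gene of neutrophil elastase, was the lowest of the 4 in AML spleen. It was listed at 0.12, 0.13, 0.24 and 0.50 FPKM (normal spleen before AML spleen, and DNAM-1+ before DNAM-1- in each). With 1 and 2 fragments in the DNAM-1+ libraries no fold is given there, and in DNAM-1- cells the ratio of 3.85 had an interval of 0.391 to 195. A difference in Elane was thus not detectable at this depth. Ms4a3, which marks the granulocyte and monocyte progenitor in mouse fate mapping, was at 0.11 FPKM in both DNAM-1+ libraries, at 0 in DNAM-1- normal and at 0.23 in DNAM-1- AML cells. These are 0 to 2 fragments, under the 3-fragment floor of 0.335 to 0.346 FPKM, and give no comparison.

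**Figure D1:**
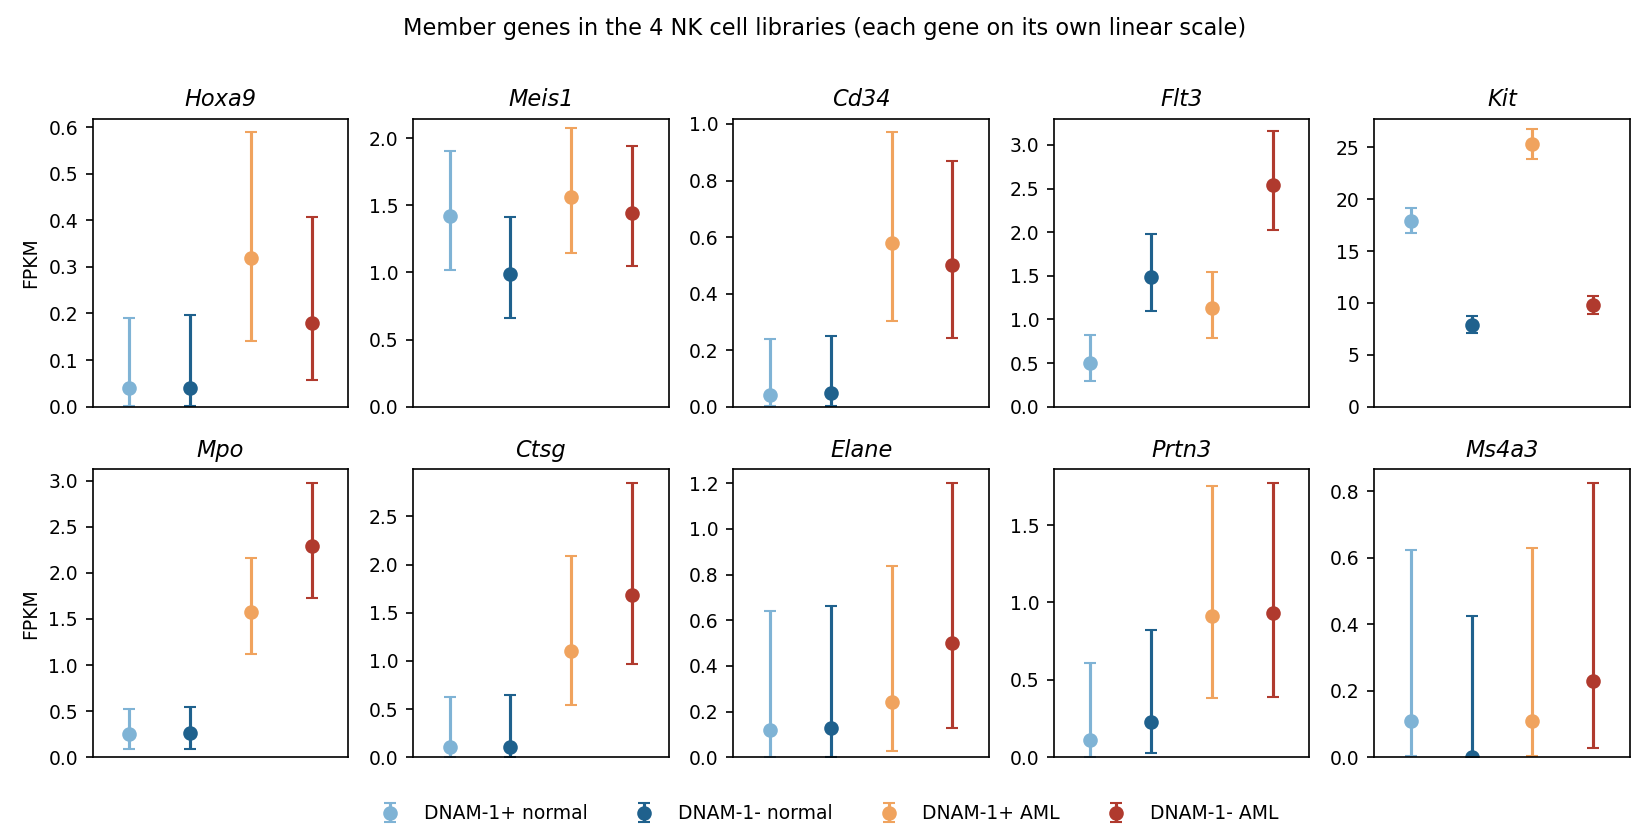
FPKM of each of the 10 genes (vertical axis, linear, a separate scale for each gene) in the 4 libraries, 1 point per library; bars are exact 95% Poisson intervals of the estimated fragments, counting error only. Mpo, Ctsg, Prtn3, Cd34, Hoxa9 and, on 1 to 4 fragments, Elane are higher in both AML libraries than in both normal ones. Meis1 has the same order by a small margin and spans only 0.99 to 1.56 FPKM. Kit follows DNAM-1 instead (17.88 and 25.3 against 7.86 and 9.78 FPKM).

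Summed, the 4 granule genes came to 0.59 FPKM in DNAM-1+ normal, 0.73 in DNAM-1- normal, 3.83 in DNAM-1+ AML and 5.40 in DNAM-1- AML cells. That is 9 and 10 estimated fragments in normal spleen against 59 and 83 in AML spleen. The AML to normal ratio of summed FPKM was 6.49 in DNAM-1+ cells and 7.40 in DNAM-1- cells. For pooled fragments the intervals were 3.27 to 15.2 and 4.25 to 17.8, and they overlap. Pooled fragments give the longer Mpo transcript more weight than summed FPKM does, and no interval was computed for summed FPKM. Within AML spleen the DNAM-1+ library held 0.709 of the DNAM-1- summed FPKM. The interval for pooled fragments was 0.495 to 0.994, which ends just below 1. For Mpo alone the ratio of 0.69 had an interval of 0.446 to 1.055, which takes in 1. A subset difference in summed FPKM was not tested, as that sum has no interval.

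Neutrophil markers stood at lower summed levels in AML than in normal spleen. The 13 neutrophil markers, among them the calprotectin genes S100a8 and S100a9 and the secondary granule gene Ltf, summed to 144.56 and 222.54 FPKM in normal and to 109.38 and 186.67 FPKM in AML spleen (DNAM-1+, then DNAM-1-). The AML sum was thus 0.757 and 0.839 of the normal one in the same pairs of libraries in which the granule genes were at 6.49 and 7.40 times. S100a9 itself was at 42.86 and 68.31 FPKM in normal and at 23.74 and 51.46 FPKM in AML spleen, and the chemokine receptor gene Cxcr2 at 45.47 and 41.3 against 40.38 and 43.71 FPKM. Not all markers had that order: Ly6g, the defining surface marker of mouse neutrophils, was at 1.08 and 1.76 FPKM in normal and 2.16 and 2.57 FPKM in AML spleen, and Chil3 at 1.49 and 4.49 against 2.16 and 4.52 FPKM, both named after their values were seen. Of the 11 neutrophil markers tested with limma, 8 fell in DNAM-1+ cells, beside 7.22% of all genes tested, and none differed between spleens by a Benjamini-Hochberg adjusted p below 0.05. At an unadjusted p below 0.05 between spleens stood 6 of the 11, beside 10.8% of all genes tested. The 12 monocyte markers, led by Lyz2 and Ly6c2, summed to 314.61 and 769.35 FPKM in normal and 375.44 and 782.7 FPKM in AML spleen, ratios of 1.19 and 1.02. The monocyte markers did not share an order between spleens. Ly6c2 was at 136.87 and 158.97 FPKM in normal and 187.7 and 192.49 FPKM in AML spleen. F13a1 was at 0.17 and 0.38 against 0.65 and 0.83 FPKM. Fcgr1 had the opposite order, at 1.0 and 7.41 against 0.47 and 2.92 FPKM, and both were named after their values were seen. The part of monocytes in the granule signal was not tested.

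**Figure D2:**
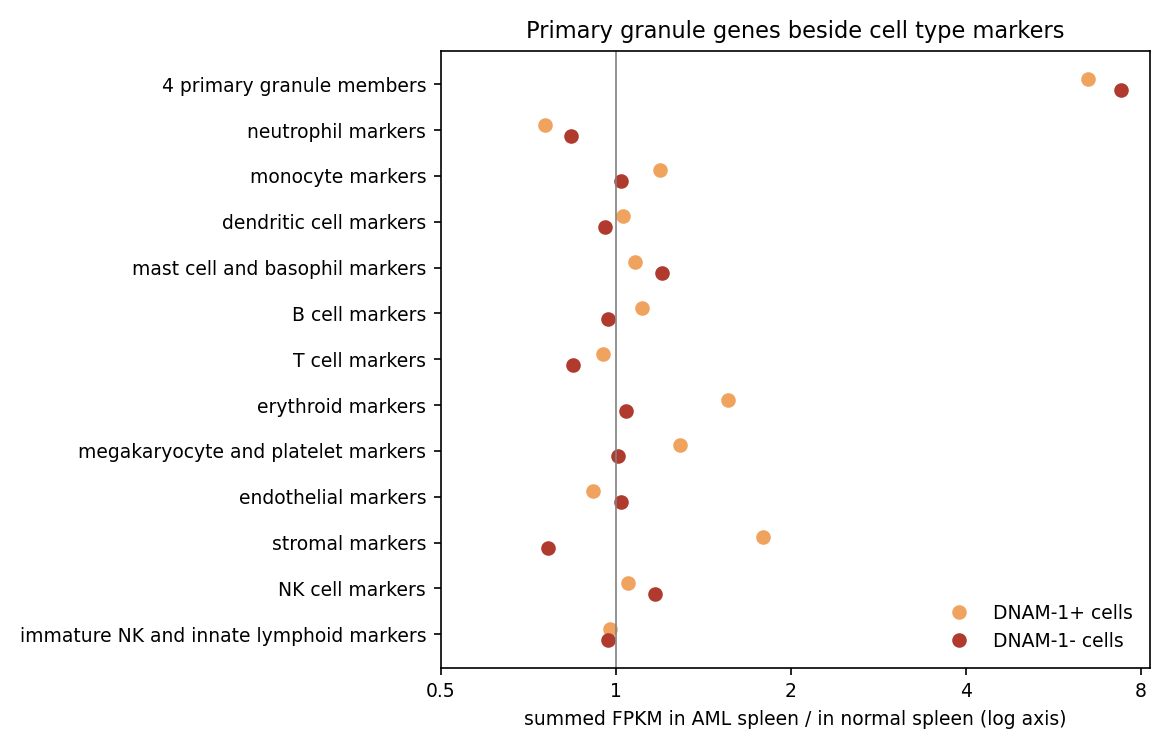
Ratio of summed FPKM in AML to normal spleen (horizontal log axis) for the 4 primary granule genes and 12 lists of cell type markers, 1 point per NK subset. The granule genes lie at 6.49 (DNAM-1+) and 7.40 (DNAM-1-), while the marker lists lie between 0.757 (neutrophil, DNAM-1+) and 1.79 (stromal, DNAM-1+, at summed levels of 0.14 and 0.25 FPKM).

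Of the 2 MLL-AF9 targets, Hoxa9 was close to absent from normal NK cells and higher in AML spleen, and Meis1 was present in all libraries. Hoxa9, the homeobox gene that MLL fusions keep active, was at 0.04 FPKM in both normal libraries, 0.32 in DNAM-1+ AML and 0.18 in DNAM-1- AML cells. These are 1, 1, 9 and 5 fragments. The ratio of AML to normal was 8.0 (1.26 to 399) in DNAM-1+ cells and 4.5 (0.553 to 234) in DNAM-1- cells, so that the second was not distinguishable from 1 at this depth.

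Meis1, the homeobox cofactor of Hoxa9, was listed at 1.42, 0.99, 1.56 and 1.44 FPKM (normal spleen before AML spleen, and DNAM-1+ before DNAM-1- in each), which is 29 to 47 fragments. Its levels lay within a narrow range and both AML intervals took in 1, at a ratio of 1.10 (0.715 to 1.71) in DNAM-1+ cells and 1.46 (0.895 to 2.44) in DNAM-1- cells. In normal spleen it was thus the most abundant of the pair by far. The limma difference between AML and normal spleen was 0.19 on the log2(FPKM + 1) scale (SE 0.18, Benjamini-Hochberg adjusted p = 0.746).

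Other genes of the MLL-AF9 programme gave no call between spleens. Of the 25 listed genes, 15 were tested with limma: for the DNAM-1 difference Id2 rose and Mef2c and Eya1 fell in DNAM-1+ cells (5.33% of all genes tested rose and 7.22% fell), and for the AML difference none passed. At an unadjusted p below 0.05 for AML stood 4 of the 15, beside 10.8% of all genes tested. Id2, an inhibitor of DNA binding that NK cells require, led the list at 270.84 to 460.43 FPKM, followed by the chromatin reader gene Psip1 at 68.99 to 85.59 FPKM and by Myc at 42.6 to 48.72 FPKM. Over the listed genes that reached 1 FPKM, the median AML to normal log2 ratio was 0.0005 for DNAM-1+ cells and 0.0521 for DNAM-1- cells, beside 0.0104 and -0.0082 over all genes at that level. Among the other Hoxa genes, picked out after their values were seen, Hoxa7 was at 0.11, 0.17, 0.39 and 0.29 FPKM and Hoxa10 at 0.05, 0, 0 and 0.05 FPKM (normal spleen before AML spleen, and DNAM-1+ before DNAM-1- in each). Hoxa5 followed DNAM-1 in both spleens, at 1.04 and 1.06 FPKM in DNAM-1+ and 0.24 and 0.12 FPKM in DNAM-1- cells, and Hoxa11 was at 0 in all 4 libraries.

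The progenitor surface genes divided. Cd34, a sialomucin of haematopoietic progenitors that is also made by endothelium, was higher in both AML libraries, as were Mpo and Ctsg. It stood at 0.04 FPKM in DNAM-1+ normal, 0.05 in DNAM-1- normal, 0.58 in DNAM-1+ AML and 0.50 in DNAM-1- AML cells. The 13 and 11 fragments in AML against 1 and 1 in normal spleen gave ratios of 14.5 (1.97 to 559) and 10 (1.58 to 468). Within AML spleen the subsets did not differ beyond counting error, at a DNAM-1+ to DNAM-1- ratio of 1.16 (0.483 to 2.88). The 9 endothelial markers summed to 46.31 and 42.79 FPKM in normal and 42.29 and 43.54 FPKM in AML spleen, of which Pecam1, made by many leukocytes, gave 41.52 to 45.85 FPKM. Emcn was at 0 in all 4 libraries and Cdh5, the gene of VE-cadherin, at 0, 0.25, 0.05 and 0.11 FPKM. No endothelial marker was higher in both AML libraries than in both normal ones. Those other than Pecam1 were at 0.48 FPKM or less, where a rise could be missed. The part of endothelium in the Cd34 values was not tested.

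Flt3 encodes the receptor that dendritic cell and early progenitors depend on and that is often mutated in human AML. Its level was 0.50 FPKM in DNAM-1+ normal, 1.49 in DNAM-1- normal, 1.13 in DNAM-1+ AML and 2.54 in DNAM-1- AML cells. In each spleen the DNAM-1- library was higher and in each subset the AML library was higher, so the DNAM-1- normal value exceeded the DNAM-1+ AML value. The DNAM-1+ to DNAM-1- ratio was 0.336 (0.185 to 0.607) in normal and 0.445 (0.291 to 0.657) in AML spleen. The AML to normal ratio was 2.26 (1.21 to 4.17) in DNAM-1+ cells and 1.71 (1.18 to 2.49) in DNAM-1- cells, below those of Mpo, Ctsg and Cd34. With limma the DNAM-1 difference of -0.73 (SE 0.17) had a Benjamini-Hochberg adjusted p of 0.0554, and the AML difference of 0.51 (SE 0.17) one of 0.415.

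Dendritic cell transcripts stood beside Flt3. The 11 markers summed to 246.23, 285.81, 254.67 and 273.82 FPKM (normal spleen before AML spleen, and DNAM-1+ before DNAM-1- in each), of which Itgax, also made by NK cells, gave 223.63 to 243.49 FPKM. Cd209a, a C-type lectin gene of monocyte-derived and type 2 dendritic cells, was at 1.03, 3.9, 3.88 and 10.29 FPKM, the same order of libraries as Flt3 apart from near-equal middle values. It was the one gene of the 16 lists with a limma call between spleens, at 1.23 on the log2(FPKM + 1) scale (Benjamini-Hochberg adjusted p = 0.0479). Clec10a, named after its values were seen, was at 0.23, 0.77, 0.81 and 2.52 FPKM. Of the defining markers, also named with their values known, Clec9a was at 0.04, 0.38, 0.07 and 0.79 FPKM. That is the order of libraries of Flt3. Siglech was at 0.14, 0.09, 0.15 and 0.4 FPKM and Zbtb46 at 1.98, 2.06, 2.58 and 2.12 FPKM. Xcr1 (0.87, 1.88, 1.28 and 1.49 FPKM) and Bcl11a (3.92, 19.58, 4.3 and 17.75 FPKM), named likewise, were lower in AML than in normal DNAM-1- cells. The part of dendritic cells in the Flt3 values was not tested.

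**Figure D3:**
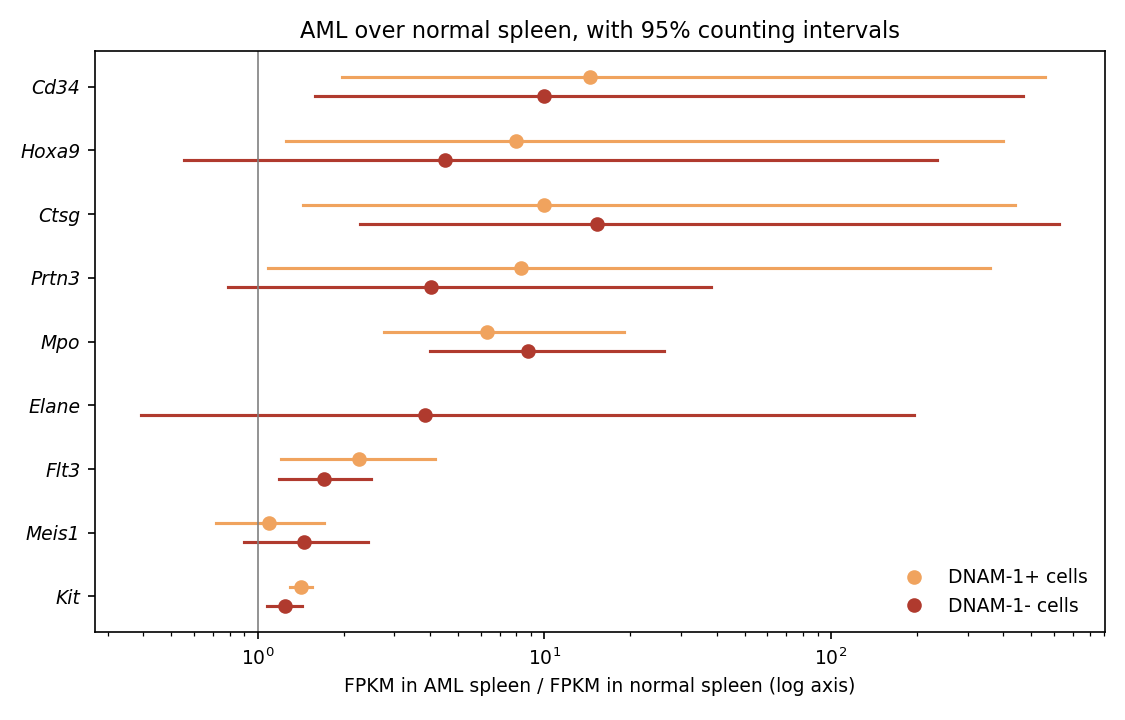
Ratio of FPKM in AML to normal spleen (horizontal log axis) for 9 of the genes in DNAM-1+ and DNAM-1- cells; lines are exact 95% counting intervals. Ms4a3 and, in DNAM-1+ cells, Elane are left out because both libraries held 3 fragments or fewer. Intervals of Mpo, Ctsg, Cd34, Flt3 and Kit lie above 1 in both subsets. Those of Kit are the narrowest, at ratios of 1.42 and 1.24, and those of Meis1 take in 1, at ratios of 1.10 and 1.46.

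Kit differed from the other 9 genes in level and in order. It was listed at 17.88 FPKM in DNAM-1+ normal, 7.86 in DNAM-1- normal, 25.3 in DNAM-1+ AML and 9.78 in DNAM-1- AML cells, from 364 to 1198 estimated fragments. Both DNAM-1+ libraries were above both DNAM-1- libraries, and the ratio of DNAM-1+ to DNAM-1- was 2.28 (2.01 to 2.58) in normal and 2.59 (2.32 to 2.89) in AML spleen. By limma Kit rose with DNAM-1 by 1.19 on the log2(FPKM + 1) scale (SE 0.086, Benjamini-Hochberg adjusted p = 0.00165), where 610 of 11454 genes tested (5.33%) were higher and 827 (7.22%) lower in DNAM-1+ cells. Kit was the one member called among the 4 that passed the filter of a mean of 1 FPKM (Kit, Flt3, Meis1 and Mpo). Without the filter its Benjamini-Hochberg adjusted p in limma was 0.117, and no gene was called (3425 at an unadjusted p below 0.05).

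Between spleens Kit differed far less. The AML to normal ratio was 1.42 (1.295 to 1.55) in DNAM-1+ cells and 1.24 (1.08 to 1.43) in DNAM-1- cells, both above 1 by counting error, and the limma difference of 0.38 (SE 0.086) had a Benjamini-Hochberg adjusted p of 0.286. Kit alone exceeded the sum of the other 9 genes in 3 libraries, where that sum was 2.7, 3.3 and 7.53 FPKM, and stood just under it in DNAM-1- AML cells, at 9.78 against 10.29 FPKM. Its level lay above 72.1% and 79.2% of listed genes in the DNAM-1+ libraries and above 54.4% and 57.5% in the DNAM-1- libraries (normal, then AML), whereas Mpo in AML spleen lay above 31.3% and 34.7%.

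The genes whose profile over the 4 libraries lay closest to that of Kit were genes of lymphocytes. Among 8254 protein-coding genes at a mean of 5 FPKM or more, the smallest root mean square differences in centred log2(FPKM + 1) were those of Cd7 (0.084), an immunoglobulin family gene of T and NK cells, Klri1 (0.15) and Klrc1 (0.16), which encode lectin-like NK receptors, Xcl1 (0.15), the chemokine lymphotactin, and Lag3 (0.18), an inhibitory receptor gene. Cd7 was at 509.83, 209.3, 615.62 and 255.27 FPKM (normal spleen before AML spleen, and DNAM-1+ before DNAM-1- in each). All 5 were higher in both DNAM-1+ libraries than in both DNAM-1- libraries, and highest in the DNAM-1+ AML library. Being picked for their likeness to Kit largely set this order, so nothing is read from it. The profiles rest on 4 libraries, which all these genes share.

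Kit was set beside markers of the other cells known to carry it. Of the 14 genes of immature NK cells and innate lymphoid cells, 12 were tested with limma and 11 rose in DNAM-1+ cells (5.33% of all genes), none fell, and the list summed to 665.08, 281.46, 648.95 and 273.33 FPKM in the same order of libraries. Thy1 (69.1 to 250.75 FPKM), Tcf7, a transcription factor gene of early NK cells, and Il7r, the interleukin-7 receptor gene (38.47, 2.06, 38.65 and 2.1 FPKM), were among them. Mast cells and basophils also bear Kit or arise from Kit+ precursors: their 12 markers summed to 4.42, 2.35, 4.78 and 2.81 FPKM, and Fcer1a, Mcpt4, Tpsb2 and Mrgprb2 were at 0 in all 4 libraries. Mcpt8, a basophil protease gene chosen after its values were seen, was at 0 in both normal libraries and at 0.67 and 0.27 FPKM in the AML libraries. Which cells carried the Kit transcripts was not tested.

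**Figure D4:**
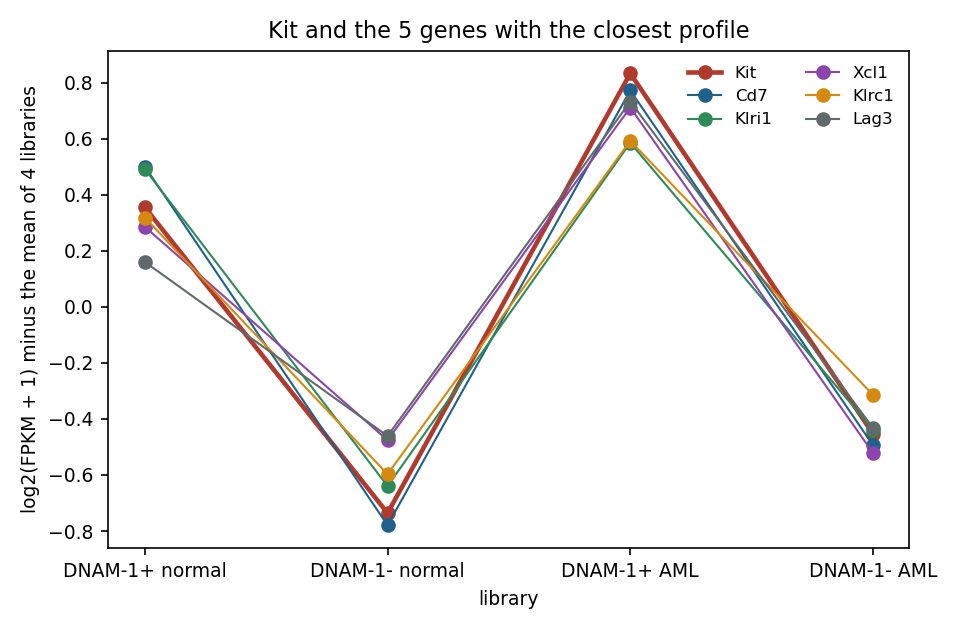
Kit and the 5 genes with the closest profile, as log2(FPKM + 1) minus the mean of each gene over the 4 libraries (vertical axis), 1 point per library; lines join the points of a gene. All 6 genes are higher in both DNAM-1+ libraries than in both DNAM-1- libraries, which for the 5 follows from their choice by likeness to Kit.

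Ligands and signalling genes of KIT and FLT3 gave calls between subsets only, at this filter. Kitl, the gene of stem cell factor, was nearly absent at 0, 0.08, 0.04 and 0.04 FPKM, while Flt3l, the gene of the FLT3 ligand, was at 51.31, 32.38, 55.59 and 33.89 FPKM (normal spleen before AML spleen, and DNAM-1+ before DNAM-1- in each). Of the 19 genes of the list tested with limma, Flt3l and Socs1 rose in DNAM-1+ cells, Gab2, Ptpn6 and Lyn fell, and none differed between spleens at a Benjamini-Hochberg adjusted p below 0.05 (1 at an unadjusted p below 0.05, beside 10.8% of all genes). Over all genes tested, 5.33% rose and 7.22% fell in DNAM-1+ cells. Ptpn6 encodes the phosphatase SHP-1, which restrains KIT signals, and Lyn a SRC family kinase. The most abundant members were Fyn (217.87 to 240.96 FPKM), Dok2 (156.6 to 192.4 FPKM) and Pik3cd (146.16 to 174.78 FPKM).

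Other cytokine receptor and surface genes of progenitor and myeloid cells gave calls between subsets and none between spleens. Of 12 tested, 8 fell in DNAM-1+ cells (Csf1r, Csf2ra, Csf2rb, Csf2rb2, Csf3r, Il6ra, Ly6a and Slamf1), Il3ra rose, and none passed between spleens (1 at an unadjusted p below 0.05), beside 7.22% of all genes that fell, 5.33% that rose and 10.8% at such a p between spleens. Csf1r, the macrophage colony-stimulating factor receptor gene, was at 7.31, 59.7, 9.84 and 57.58 FPKM and Csf3r, the granulocyte one, at 3.25, 15.25, 2.84 and 12.15 FPKM. The largest member, Cd48, ranged from 184.86 to 209.07 FPKM. The list's median log2 ratio of DNAM-1+ to DNAM-1- was -1.74 in normal and -1.28 in AML spleen, and that of AML to normal 0.0963 in DNAM-1+ cells and -0.10 in DNAM-1- cells, beside medians of all genes within 0.0104 of 0.

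Genes of promyelocytes and granulocyte precursors other than the members likewise gave no limma call between spleens, where 3 of 11 had an unadjusted p below 0.05 (10.8% of all genes tested), and 6 of the 11 fell in DNAM-1+ cells (7.22% of all genes) while none rose (5.33%). Among those that fell were Igsf6, Serpinb1a, Clec12a and Cebpa, the gene of the transcription factor that commits cells to the granulocyte line, at 0.9, 3.83, 1.08 and 4.17 FPKM. Calr and Plac8, among the most abundant, are also made by other cells. The precursor genes Prss57 and Fcnb, chosen after their values were seen, were at 0.32, 0.5, 0.49 and 0.74 FPKM and at 0.1, 0.22, 0.21 and 0.64 FPKM (normal spleen before AML spleen, and DNAM-1+ before DNAM-1- in each). Prss57 encodes another protease of the primary granule, and its 4 values lay closer together than those of Mpo or Ctsg.

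Of the remaining lists, erythroid markers summed to 13.64, 23.35, 21.32 and 24.31 FPKM, platelet markers to 5.29, 5.26, 6.81 and 5.31 FPKM, stromal markers to 0.14, 0.68, 0.25 and 0.52 FPKM with Lum at 0, and T cell markers to 69.14, 27.07, 65.73 and 22.86 FPKM in the same order of libraries. None of their members was called between spleens by limma with Benjamini-Hochberg adjustment. Their part in the values of the 10 genes was not tested.

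Among genes that reached 1 FPKM in either library of a pair, a 2-fold higher level in AML spleen on the log2(FPKM + 1) scale was found for 0.935% in DNAM-1+ cells and for 0.621% in DNAM-1- cells, and a 2-fold lower level for 0.883% and 1.01%. Among the 10 genes, Mpo passed in DNAM-1+ cells and Mpo and Ctsg in DNAM-1- cells, out of 5 at that level in each, and none was lower. Mpo and Ctsg reached 1 FPKM only through the AML libraries in which they are high, so nothing is read from their count against these shares. With 5 FPKM added in place of 1, no member passed between spleens. Mpo was 1 of 18 genes, and of 5 protein-coding genes, at least 2-fold higher in both subsets, out of 12054 genes that reached 1 FPKM in any of the libraries. The other 4 protein-coding genes were Cd209a, Eps8l1, Capn11 and the histone gene H4c17. At least 2-fold lower in both subsets were 26 genes, 9 of them protein-coding. Here too Mpo reached 1 FPKM only through its AML libraries, so nothing is read from its place among the higher genes. Between subsets, 1.87% of genes in normal and 1.45% in AML spleen had a level in DNAM-1+ cells of 2-fold or more that of DNAM-1- cells, with Kit the one member in both, and 4.98% and 3.79% were lower by that much, with no member.

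The limma test between spleens called 8 genes higher (0.0698%) and 18 lower (0.157%) in AML spleen, and none of the 4 members it tested. Mpo had the largest difference of the 4, 1.22 on the log2(FPKM + 1) scale (SE 0.20, Benjamini-Hochberg adjusted p = 0.174), and it passed the filter on mean level only through its AML libraries. At an unadjusted p below 0.05 stood 3 of the 4 members (Mpo, Kit and Flt3) and 1234 of 11454 genes (10.8%). When only protein-coding genes were tested, Mpo was called, at a Benjamini-Hochberg adjusted p of 0.0229 by limma. The subsets of a spleen may come from the same mice, so that the 2 differences behind this test may not be independent.

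**Figure D5:**
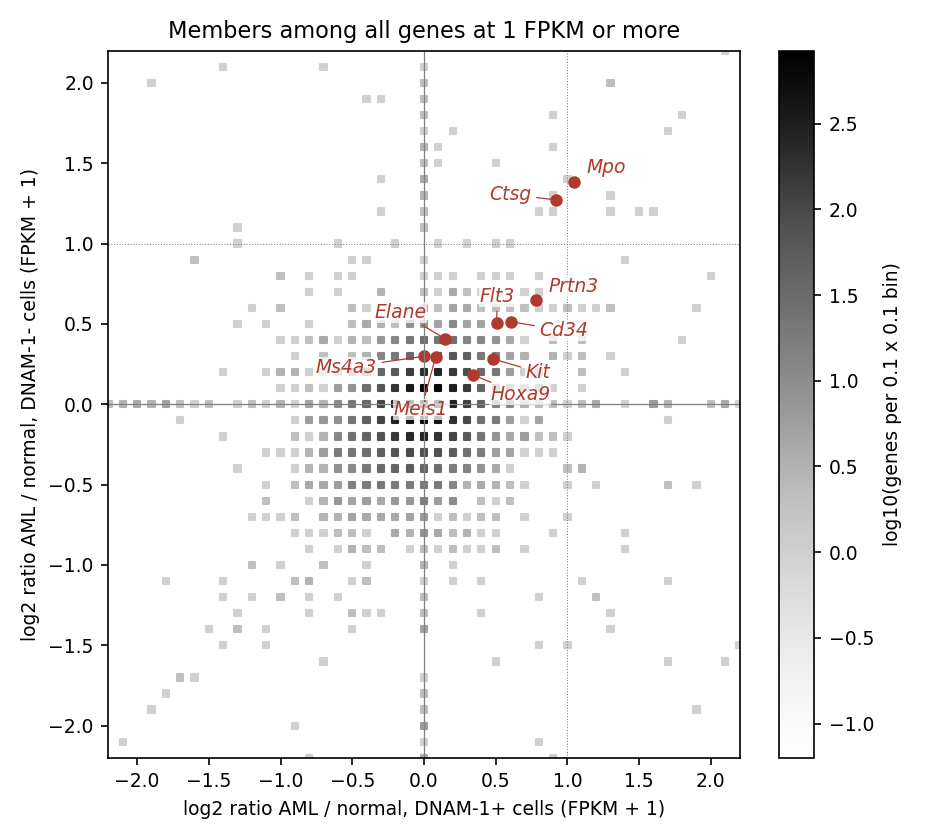
Log2 ratio of AML to normal spleen on the FPKM + 1 scale in DNAM-1+ (horizontal) and DNAM-1- cells (vertical); grey squares count the 12054 genes that reached 1 FPKM in any of the libraries, in bins of 0.1, red points are the 10 genes, and dotted lines mark 2-fold; genes with larger ratios fall outside the axes. Mpo lies past both dotted lines, Ctsg past 1 of them, and no member lies below 0 on either axis.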

How the data were processed

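Total RNA of sorted NK cells was sequenced in 4 libraries. Per the labels' protocols, an RNeasy kit gave the RNA and BGISEQ-500 the reads. Per the submitters' processing notes, Bowtie2 2.2.5 and RSEM were used; the genome build and annotation are not given in the sources used here. The authors deposited FPKM per the file headers, in 2 decimals, listing only genes above 0; an unlisted gene was taken as 0. No label shows separate mice.

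The 10 members and the 16 lists were chosen with earlier results of these data known. Of 17723 gene numbers, 17668 matched a RefSeq symbol (GRCm38.p6).

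Contrasts are log2 ratios after adding 1 FPKM, counted at 2-fold with 1 FPKM or more in the higher library, with no test. Values of log2(FPKM + 1) were tested in limma (version 3.58.1, in R 4.3.3) with subset and spleen as terms and a trend of variance with mean, two-sided, leaving 1 residual degree of freedom. The fit covered 11454 genes with a mean of 1 FPKM or more, took a Benjamini-Hochberg adjusted p below 0.05 as a call, and was tested on simulated data. Depth was estimated from steps in the FPKM of microRNA hairpins 55 to 100 nt long, 90.3% to 93.9% of whose values lay within 0.1 step of a whole number of fragments up to 6, after 36 nt were taken off each length. Member fragments are FPKM times the longest GENCODE transcript less 36 nt times depth, rounded, and are estimates. Intervals are exact Poisson (levels) or Clopper-Pearson (ratios) at 95%, and for the 4 granule genes together they are those of pooled fragments. With 3 fragments or fewer in both libraries no fold is given. Genes named are the 10 members, Cd226 and Ncr1, and from each list the 3 most abundant, up to 4 called and those at 0 throughout, plus 5 neighbours of Kit; others are said to be chosen after their values were seen. A gene that this rule would name is not reported here. Alternatives were other pseudocounts, filters, scalings, gene types and no trend.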

Additional observations from a re-analysis of the deposited data

Results flagged for a closer look

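By listed FPKM alone, Cd34 and Ms4a3 had DNAM-1 contrasts of opposite sign in the 2 spleens, a difference that was not tested. Their normal spleen values rest on 0 or 1 estimated fragment each and give no direction. For Cd34 the DNAM-1+ library was below the DNAM-1- library in normal spleen (0.04 against 0.05 FPKM, 1 fragment each) and above it in AML spleen (0.58 against 0.50 FPKM), and the log2(FPKM + 1) ratio differed by 0.0888. For Ms4a3 the DNAM-1+ library was above in normal spleen (0.11 against 0 FPKM) and below in AML spleen (0.11 against 0.23 FPKM), a difference of -0.2987. No value of Ms4a3 rested on more than 2 estimated fragments.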

How the results depend on the processing

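No member log2 ratio or limma difference changed sign under the alternatives run, apart from 3 ratios of equal values (Ctsg and Hoxa9 between subsets in normal spleen, Ms4a3 between spleens in DNAM-1+ cells). Of genes at least 2-fold in either direction (normal spleen and AML spleen for DNAM-1, then DNAM-1+ and DNAM-1- cells for AML), a pseudocount of 5 FPKM left 286, 201, 36 and 29, and a floor of 5 FPKM left 468, 361, 57 and 52; a pseudocount of 0.1 gave 978 (AML spleen), 329 and 302 in the last 3. Members past 2-fold became 2 in each DNAM-1 contrast with 0.1 FPKM added (Flt3 joining Kit) and 3 for AML in DNAM-1+ cells. They became 0 in normal spleen and in both AML contrasts with 5 FPKM added, and 0 in both AML contrasts with the floor of 5 FPKM. With FPKM rescaled to an equal sum in each library (TPM) they were 2 in normal spleen and 2 for AML in DNAM-1+ cells. On that scale the 9 genes other than Kit summed to 6.24, 7.67, 17.65 and 24.23, a change of unit.

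With limma, genes called for DNAM-1 became 935 without the trend and 0 without a filter (3425 at an unadjusted p below 0.05). Genes called for AML, 26 in the fit described, became 6 and 14 with 0.1 and 5 FPKM added, 9 with a mean of 0.25 FPKM, 16 without the trend, 99 among protein-coding genes, 14 after that rescaling, and 0 without a filter (1269 at an unadjusted p below 0.05). Flt3 was called for DNAM-1 with a mean of 0.25 FPKM, without the trend and among protein-coding genes (Benjamini-Hochberg adjusted p = 0.0471, 0.0209 and 0.0121). The cause was not tested. No paired analysis was possible because each group is 1 library and no mouse is named; leaving out a library leaves no residual degrees of freedom and was not run. Depth limits Elane, Ms4a3 and every ratio against 1 or 2 fragments.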
